A study of Mus musculus with 5 samples.

Results

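The genes of MHC class II presentation were examined in bone marrow-derived macrophages (BMDMs) cocultured with mouse breast cancer cells. The group held 9 genes, chosen by symbol and matched by Entrez gene identifier, of the 17058 genes with a listed transcript. They were Cd74, H2-Aa, H2-Ab1, H2-Eb1, H2-DMa, H2-DMb1, H2-DMb2, H2-Oa and Ciita, and all 9 were detected and passed the filter on low counts. The macrophages came from the bone marrow of Balb/c mice aged 6 to 12 weeks, female per the study's text, and were grown in M-CSF for 4 to 5 days before coculture. In both groups, they were then kept for 48 hours with 4T1 cells, a mouse mammary carcinoma line, the 2 cell types being held on opposite sides of a permeable insert. In 2 libraries the 4T1 cells were WT, and in 3 they were Adam17-/-, made with CRISPR/Cas9 and carrying a single knockout designation in the sample labels, so that the Adam17-/- group rests on 1 edited line. ADAM17 is a metalloprotease that cuts proteins such as TNF and ligands of the EGF receptor free of the membrane. The knockout lay in the cancer cells, whose RNA was not sequenced here, so it could not be checked in these libraries. The comparison asks how class II transcripts of macrophages differ when the cocultured cancer cells lack ADAM17.

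MHC class II molecules are pairs of an α and a β chain that present peptides from engulfed proteins to CD4+ T cells. They are made in the endoplasmic reticulum with the invariant chain, which fills the peptide groove and guides the complex to endosomes. There, proteases trim the invariant chain to a short remnant, DM exchanges this remnant for a peptide, and DO restrains DM. CIITA is a coactivator that does not bind DNA itself. It is recruited to the class II promoters by factors that sit on the X box (RFX and CREB) and the Y box (NF-Y), and its own level largely sets the level of class II transcription. In macrophages, class II genes are best known for their induction by IFN-γ.

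Total expected counts per library ranged from 14658694 to 20788373. In a principal component analysis of log2 CPM, the 2 groups lay apart on component 1 (63.0% of the variance), and the 2 WT libraries lay far from each other on component 2 (16.9%). Macrophage markers were abundant in every library, as the label states. Their 8 genes summed to 28420 and 27660 CPM (counts scaled to the size of the library) with WT 4T1 cells and to 17940, 18500, and 19910 CPM with Adam17-/- 4T1 cells. Of the 8, 6 were called lower (edgeR, adjusted p of 0.05 or less) and 2 (Csf1r and Mertk) did not pass. For this and the next lists, the shares over all genes tested were 14.9% called higher and 16.8% lower. Of 9 neutrophil and precursor markers, 8 were higher and Mpo did not pass (adjusted p = 0.0581), and the list summed to 393 and 323.9 CPM with WT cells against 1232, 1306, and 1132 CPM. Of 11 dendritic cell markers, 8 were tested, of which 4 were higher (Ccr7, Clec9a, Itgax, and Fscn1), 1 was lower (Clec10a), and 3 did not pass. This list summed to 54.4 and 38.2 CPM against 68.4, 79.7, and 77.7 CPM. Zbtb46, a factor that defines classical dendritic cells, stayed under 1 CPM in every library. Markers of B cells, which also express class II constitutively, summed to at most 5.0 CPM. Cd79b had the most counts of these (28 to 54 per library). Ighm was not listed in any library, and whether the authors' reference held it is not known. The 6 epithelial markers summed to 11.47 to 14.28 CPM, nearly all of it Cdh1 (10.6 to 13.2 CPM, not called), with Epcam at 0 to 1 count in each library. Dendritic cells also carry class II, and the part of these shifts in the class II values was not tested. In bulk RNA, fewer cells of a type and less RNA per cell cannot be told apart.

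The promoters of the class II genes were searched for letters of the X and Y boxes, on which CIITA's partner factors are known to sit. RefSeq sequence (GRCm38.p6, from C57BL/6J) from 250 bases before to 50 bases after a start site was at hand for 6 of the 9 members, and for H2-Ob and H2-Eb2. The 65 bases around the Y box are printed here on the coding strand, 5′ to 3′, to show how far the members share one layout. Capitals mark the Y box letters ATTGG (the reverse complement of CCAAT) and, upstream of it, a match to X box letters, CCTNGNNAC or AGNAAC. The second of these was chosen after the sequences were seen, and it can lie within the first.
H2-Aa, chr17:34287857-34287921, minus strand: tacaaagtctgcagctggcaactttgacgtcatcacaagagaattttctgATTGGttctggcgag
H2-Eb1, chr17:34305758-34305822, plus strand: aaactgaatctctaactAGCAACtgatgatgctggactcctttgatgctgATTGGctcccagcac
H2-DMb1, chr17:34153080-34153144, plus strand: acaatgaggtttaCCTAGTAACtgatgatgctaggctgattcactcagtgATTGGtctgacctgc
H2-DMb2, chr17:34145109-34145173, plus strand: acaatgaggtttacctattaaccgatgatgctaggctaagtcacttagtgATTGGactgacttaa
H2-Oa, chr17:34092286-34092350, plus strand: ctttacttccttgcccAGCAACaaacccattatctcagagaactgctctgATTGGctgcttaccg
H2-Ob, chr17:34238798-34238862, plus strand: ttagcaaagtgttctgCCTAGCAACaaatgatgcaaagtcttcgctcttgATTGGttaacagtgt

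Counted from the start site, the Y box of these windows began at −48 in H2-Aa, −59 in H2-Eb1, −61 in H2-DMb1, −90 in H2-DMb2, −43 in H2-Oa, and −57 in H2-Ob. In the window of H2-Eb2, not printed since the gene was hardly detected, it began at −100. The windows of H2-DMb1 and H2-DMb2 had the same base at 56 of 65 positions (86.2%). On either strand, ATTGG lay in a promoter of all 8 class II genes with a sequence, and in 37.4% of all 32851 promoters. CCTNGNNAC lay in 2 of the 8 genes, H2-DMb1 and H2-Ob, and in 15.8% of all promoters. AGNAAC lay in 6 of the 8 genes and in 48.1% of all promoters. ATTGG and AGNAAC both lay in 6 of the 8 genes and in 18.5% of all promoters, but in H2-DMa the AGNAAC match lay just past the start site, on the other strand, and not upstream of the Y box. H2-DMa had 2 listed start sites, and ATTGG lay in the promoter of 1 of them, at −198, farther upstream than in the printed windows. A match of these letters is not a measured binding site.

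Levels between genes were compared as FPKM, fragments scaled to the length of the transcript and the size of the library. The authors' reference was C57BL/6J, and Balb/c mice carry other H2 alleles. This holds for both groups, but how far it distorts the levels of the H2 genes against each other was not tested. Cd74, the invariant chain, was by far the highest, at 2085 ± 194 FPKM (SD, n = 2) with WT 4T1 cells and 2169 ± 352 FPKM (SD, n = 3) with Adam17-/- 4T1 cells, and ranked 12 among the 17058 genes by FPKM. The chains of the classical class II molecules followed. With WT 4T1 cells, H2-Ab1 (401 FPKM) and H2-Aa (391 FPKM) had overlapping ranges, and so did H2-DMb1 (65.4 FPKM) and H2-DMa (60.0 FPKM). With Adam17-/- 4T1 cells, H2-Aa (547 FPKM) and H2-Ab1 (517 FPKM) again overlapped, but the ranges of H2-DMb1 (69.1 FPKM) and H2-DMa (49.5 FPKM) were apart. Within each single library of both groups, H2-DMb1 lay above H2-DMa. All other neighbours in the order, down to H2-DMb2, Ciita (4.34 and 7.54 FPKM), and H2-Oa (0.575 and 0.820 FPKM), were apart in both groups. The members thus spanned more than 3 orders of magnitude, with Ciita below all of the other members except H2-Oa.

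**Figure D1:**
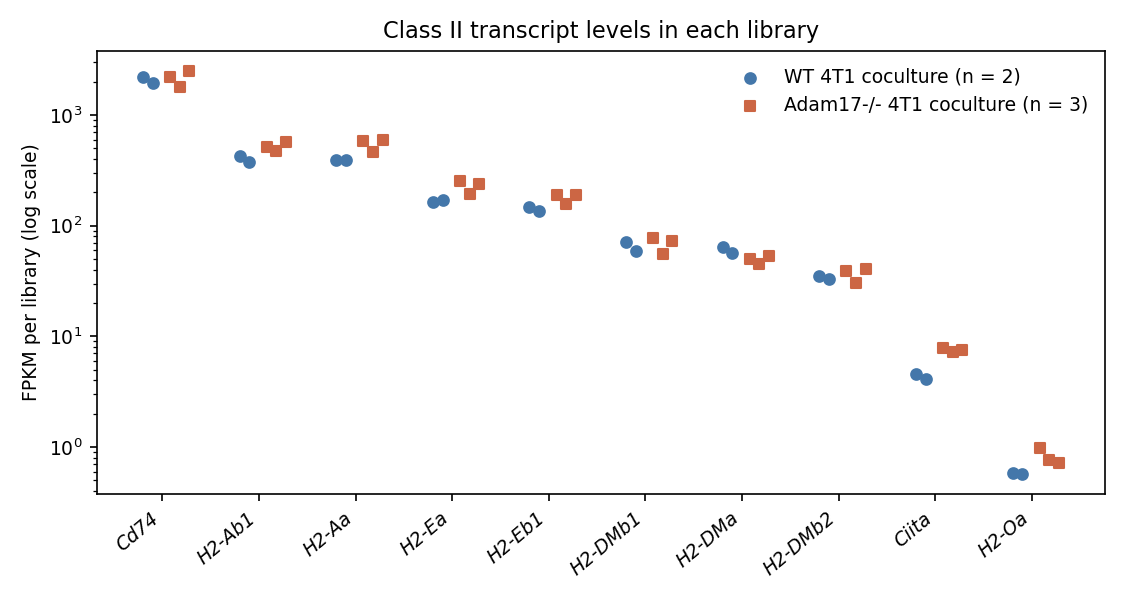
FPKM of the 9 class II genes and H2-Ea in each library on a log axis, with blue circles for the 2 libraries cocultured with WT 4T1 cells and orange squares for the 3 cocultured with Adam17-/- 4T1 cells. On this scale Ciita, H2-Aa, H2-Ab1, H2-Eb1, H2-Ea, and H2-Oa lie higher in all 3 Adam17-/- libraries and H2-DMa lies lower, while the groups of Cd74, H2-DMb1, and H2-DMb2 overlap. FPKM is not TMM-scaled, and in TMM-scaled CPM the groups of H2-Ab1 and H2-Eb1 overlap too. In CPM, 28.4% of all genes tested lie higher without overlap and 29.7% lie lower.

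Differences between groups were tested with edgeR's quasi-likelihood test on counts across 12576 genes, with Benjamini-Hochberg adjusted p over all of them and a call at 0.05 or less. With Adam17-/- 4T1 cells, 2 of the 9 class II genes rose (Ciita and H2-Aa), 1 fell (H2-DMa), and 6 did not pass. Before any limit on the fold change, the share called, 33.3%, lay near the 31.7% called among all genes tested (14.9% higher and 16.8% lower). The groups did not overlap for 3 members that lay higher and 1 that lay lower, against 28.4% of all genes higher and 29.7% lower (58.1% in either direction). No member passed a further limit of 1 on the size of the log2 fold change, as 4.22% of all genes did, or the limits of 0.001 on the adjusted p and 0.25 on the log2 fold change that the study's methods name, as 2.47% did. The median log2 fold change was 0.17 over the members and 0.01 over all genes. With scaling by library size alone, the median over all genes moved to 0.16, and 4 members were called higher (H2-Ab1 and H2-Eb1 as well) and none lower.

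**Figure D2:**
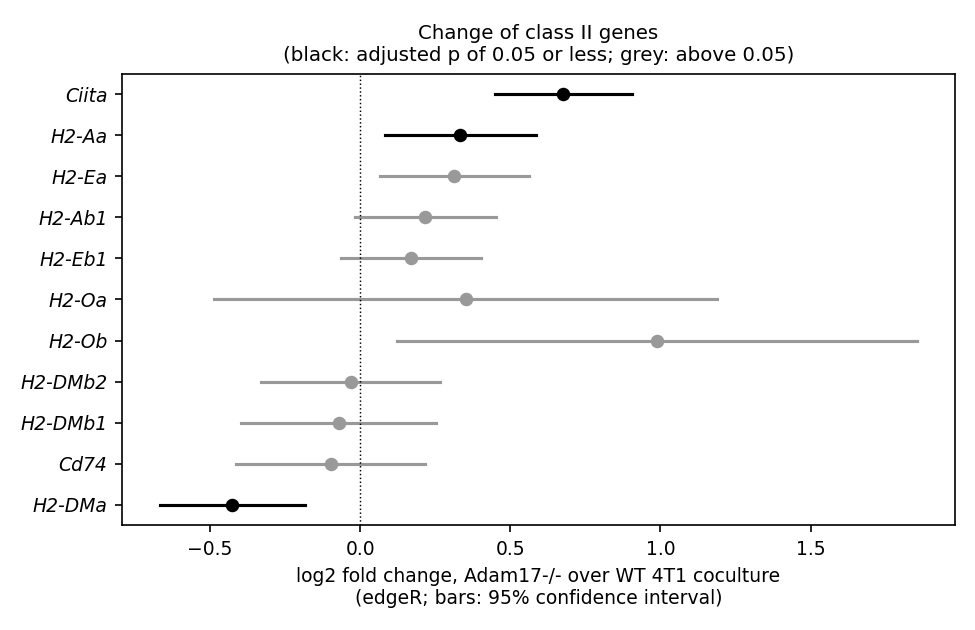
Log2 fold change (Adam17-/- over WT 4T1 coculture, edgeR) of the 9 members, H2-Ea and H2-Ob, with bars for the 95% confidence interval, black where the adjusted p is 0.05 or less. Ciita (0.68) and H2-Aa (0.33) lie above 0 and H2-DMa (−0.43) below it. The intervals of H2-Ab1, H2-Eb1, H2-Oa, Cd74, H2-DMb1, and H2-DMb2 include 0. The sign of Cd74, H2-DMb1, and H2-DMb2 depends on the scaling.

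Ciita, the coactivator (Entrez 12265, chr16:10480014-10531064), showed the largest change in size among the members called. It stood at 26.3 and 22.6 CPM with WT 4T1 cells and at 40.2, 37.8, and 39.2 CPM with Adam17-/- 4T1 cells. All 3 Adam17-/- libraries lay above both WT libraries, and the 3 differed little among themselves. The mean was 24.4 ± 2.7 CPM (SD, n = 2) with WT cells and 1.60-fold higher, 39.1 ± 1.2 CPM (SD, n = 3), with Adam17-/- cells. This gave a log2 fold change of 0.68 (SE 0.10, 95% confidence interval 0.45 to 0.90, adjusted p = 0.0016). It passed the test under all 16 alternatives tried, with log2 fold changes of 0.57 to 0.83 and adjusted p of 6.75e-06 to 0.0121.

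Ciita is transcribed from several promoters, each with its own first exon. The most upstream one is known for its use in myeloid cells, and the most downstream one for its induction by IFN-γ. The deposited tables listed 4 Ciita transcripts. In GENCODE (GRCm38), 3 of them (NM_001243760, NM_001302618, and NM_001302619) start in an upstream first exon, at chr16:10480059-10480426 or, for the last, chr16:10480164-10480426. NM_001243761 starts in a first exon of 84 bases at chr16:10489781-10489864, 9722 bases further downstream. The transcripts share sequence, so their expected counts are estimates that rest on the reads over the parts that differ. A transcript with the first exon between these, NM_007575, was not listed in any library.

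The transcript with the downstream first exon had 159 and 120 expected counts with WT 4T1 cells, and 14.9, 0, and 24.9 with Adam17-/- 4T1 cells. The transcripts with an upstream first exon together had 344 and 297 counts against 720, 574, and 716. So the rise in Ciita lay in the transcripts with the upstream first exon, while the downstream one was lower in all 3 Adam17-/- libraries. The downstream first exon held 32.8% and 29.9% of Ciita FPKM with WT cells and 2.17%, 0%, and 3.58% with Adam17-/- cells. The difference was −29.5 percentage points (31.4% ± 2.0, n = 2, against 1.92% ± 1.80, n = 3, SD), and the exact two-sided permutation test gave p = 0.1, the smallest this design allows.

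Grouped by first exon and tested with edgeR among all genes, a grouping made after the values were seen, the upstream counts rose by 1.17 on the log2 scale (SE 0.10, adjusted p = 0.000206), and the downstream counts fell by 3.28 (SE 0.50, adjusted p = 0.0017). Tested singly among all transcripts, NM_001302618 rose (log2 fold change 1.71, SE 0.21, adjusted p = 0.0271), and NM_001243761 did not pass (−3.32, SE 1.27, adjusted p = 0.177), where 7.59% of 17618 transcripts did. In edgeR's test for unequal change of a gene's transcripts, Ciita did not pass (adjusted p = 0.0638), where 4.29% of 3196 genes with 2 or more tested transcripts did, and none of its 4 transcripts passed against the rest of the gene, where 1.03% of 8284 transcripts did. NM_001243760 and NM_001302618 differ in length by 3 bases (5435 and 5438), and the split of reads between this pair is the least certain.

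**Figure D3:**
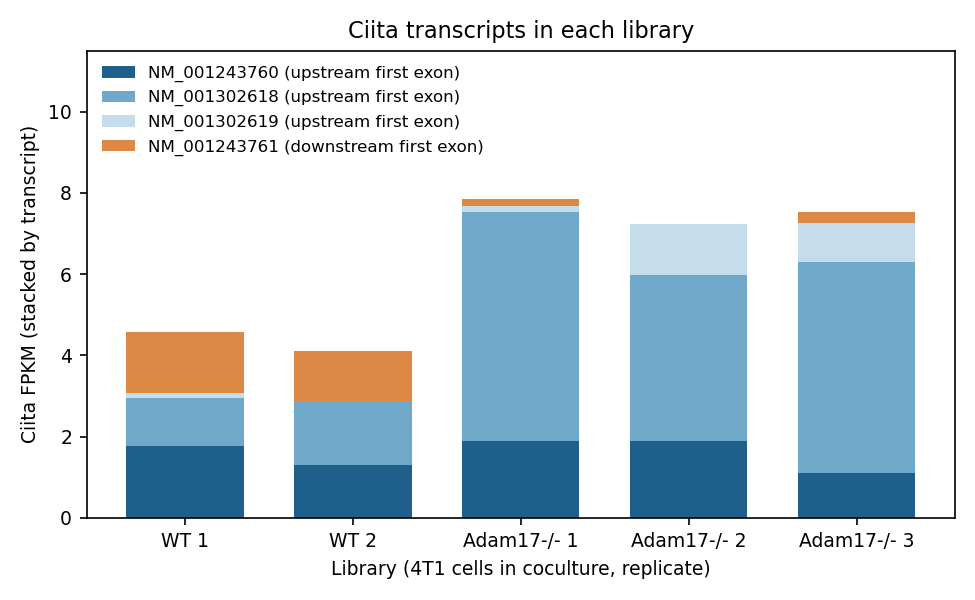
Ciita FPKM in each library (stacked bars, 1 per library), split into 3 transcripts with an upstream first exon (blue shades) and 1 with the downstream first exon (orange). The orange part makes up 32.8% and 29.9% of the WT bars and at most 3.58% of the Adam17-/- bars, which are taller through their blue parts.

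The classical chains form I-A (H2-Aa with H2-Ab1) and I-E (H2-Ea with H2-Eb1). H2-Aa, the α chain of I-A (Entrez 14960, chr17:34282744-34287823), stood at 432 and 415 CPM with WT cells and at 561, 453, and 586 CPM with Adam17-/- cells. The groups did not overlap, although the second Adam17-/- library lay close to the WT ones. The mean was 1.26-fold higher (423 ± 12 against 534 ± 71 CPM, SD, n = 2 and 3; log2 fold change 0.33, SE 0.11, 95% confidence interval 0.08 to 0.59, adjusted p = 0.0478). This call is near its threshold and was lost when WT replicate 2 (0.30, adjusted p = 0.0627), Adam17-/- replicate 1 (0.32, adjusted p = 0.137), or Adam17-/- replicate 3 (0.28, adjusted p = 0.132) was left out in edgeR.

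H2-Ab1, the β chain of I-A (Entrez 14961, chr17:34263227-34269418), had 519 and 443 CPM with WT cells and 547, 515, and 614 CPM with Adam17-/- cells, so that the groups overlapped. In FPKM, which is not TMM-scaled, they did not (423 and 379 against 510, 475, and 565). Its log2 fold change of 0.22 did not pass (SE 0.11, 95% confidence interval −0.02 to 0.45, adjusted p = 0.141). The change was 0.33 without WT replicate 1 and 0.11 without WT replicate 2, each time with 1 WT library left. H2-Eb1, the β chain of I-E (Entrez 14969, chr17:34305867-34316674), had 258 and 228 CPM against 289, 242, and 290 CPM, and did not pass either (0.17, SE 0.10, 95% confidence interval −0.06 to 0.40, adjusted p = 0.237). Here too the groups overlapped in CPM but not in FPKM, and the log2 fold change ranged from 0.08 to 0.27 with 1 library left out. Both genes were called higher with library size alone (0.37, adjusted p = 0.021, and 0.32, adjusted p = 0.0396). H2-Ea, the α chain of I-E, is not among the 9 members and is annotated as a transcribed pseudogene in the C57BL/6J reference, while Balb/c mice express I-E. It had 146 and 144 CPM against 197, 153, and 190 CPM, apart between groups, with a log2 fold change of 0.31 that did not pass (SE 0.11, adjusted p = 0.0550). The log2 fold changes of H2-Aa, H2-Ab1, and H2-Eb1 were above 0 under all 16 alternatives tried. H2-Eb2, a further β chain gene, was at 0 or 1 count in each library and was not tested.

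The DM genes encode the peptide exchanger. H2-DMa, its α chain (Entrez 14998, chr17:34119693-34139101), had 110 and 92.9 CPM with WT cells and 76.0, 68.5, and 82.5 CPM with Adam17-/- cells. Each Adam17-/- library lay below both WT libraries. The mean was 102 ± 12 CPM (SD, n = 2) with WT cells and 75.7 ± 7.0 CPM (SD, n = 3) with Adam17-/- cells, a log2 fold change of −0.43 (SE 0.11, 95% confidence interval −0.67 to −0.18, adjusted p = 0.0159). In edgeR the call was lost with library size alone (−0.28, adjusted p = 0.0667), without Adam17-/- replicate 1 (−0.41, adjusted p = 0.0692), and without Adam17-/- replicate 2 (−0.34, adjusted p = 0.0754).

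H2-DMb1 and H2-DMb2 are closely related genes for the β chain (Entrez 14999 and 15000, chr17:34153191-34160229 and chr17:34143229-34151553). Their counts were not whole in any library, so how reads were split between them is uncertain. H2-DMb1 had 94.3 and 75.4 CPM against 90.7, 65.5, and 85.9 CPM, with overlapping groups (log2 fold change −0.07, SE 0.14, 95% confidence interval −0.40 to 0.25, adjusted p = 0.733). H2-DMb2 had 27.2 and 24.4 CPM against 26.8, 20.9, and 27.9 CPM, with overlapping groups too (−0.03, SE 0.13, 95% confidence interval −0.33 to 0.27, adjusted p = 0.876). Counted as 1 gene, they had a log2 fold change of −0.06 (edgeR, adjusted p = 0.755). The sign of both depended on the scaling, and neither passed under any alternative.

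The genes of DO, the inhibitor of DM, are known mainly from B cells, and here both had low counts in every library. H2-Oa, its α chain (Entrez 15001, chr17:34092379-34095234), had 12 and 11 counts with WT cells and 17, 11, and 13 counts with Adam17-/- cells (log2 fold change 0.35, SE 0.37, 95% confidence interval −0.49 to 1.19, adjusted p = 0.499). H2-Ob, its β chain and not a member, had 14 and 9 counts against 29, 16, and 19 counts, and did not pass (0.99, SE 0.39, adjusted p = 0.0772). With so few counts, a change in DO of the size seen for Ciita was within the interval of H2-Oa.

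Cd74, the invariant chain (Entrez 16149), had 2945 and 2443 CPM with WT cells and 2534, 2096, and 2920 CPM with Adam17-/- cells. The groups overlapped. The means were 2694 ± 355 CPM (SD, n = 2) and 2516 ± 412 CPM (SD, n = 3), with a log2 fold change of −0.10 (SE 0.14, 95% confidence interval −0.41 to 0.22, adjusted p = 0.623) whose sign turned with library size alone (0.05). Cd74 makes a short and a long form of the invariant chain, of which the long one carries an additional protease inhibitor domain. The longer transcript, NM_001042605, held 24.0% and 17.8% of Cd74 FPKM with WT cells and 18.4%, 19.5%, and 19.0% with Adam17-/- cells, with overlapping groups (exact permutation test, p = 0.6).

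Ratios of FPKM within a library compare subunits of a complex, or genes of different complexes, independently of the scaling between libraries. H2-DMa to H2-Ab1 was 0.151 and 0.148 with WT cells and 0.0982, 0.0940, and 0.0950 with Adam17-/- cells. The WT and Adam17-/- libraries were apart, with little spread in either group, with a log2 difference of −0.64. H2-DMb1 plus H2-DMb2 to H2-DMa was 1.66 and 1.64 against 2.34, 1.93, and 2.11 (log2 difference 0.36). Cd74 to H2-Ab1 was 5.25 and 5.15 against 4.32, 3.79, and 4.43 (log2 difference −0.32). So DMa stood lower against both its own β chain and the I-A β chain, and the invariant chain lower against the I-A β chain. Among the classical chains, the planned ratios overlapped between groups. H2-Aa to H2-Ab1 was 0.922 and 1.04 against 1.14, 0.975, and 1.06, and H2-Eb1 to H2-Ab1 was 0.350 and 0.362 against 0.371, 0.329, and 0.331. In exact two-sided permutation tests, the first 3 ratios reached p = 0.1, the smallest that 2 against 3 libraries allow (0.167 after adjustment over 5 ratios), and the last 2 gave p = 0.4 and p = 0.6. H2-Ea to H2-Eb1, the chains of I-E, was added after the values were seen and did not overlap, at 1.104 and 1.236 against 1.335, 1.244, and 1.281 (log2 difference 0.14, exact permutation p = 0.1), although WT replicate 2 and Adam17-/- replicate 2 were almost equal.

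**Figure D4:**
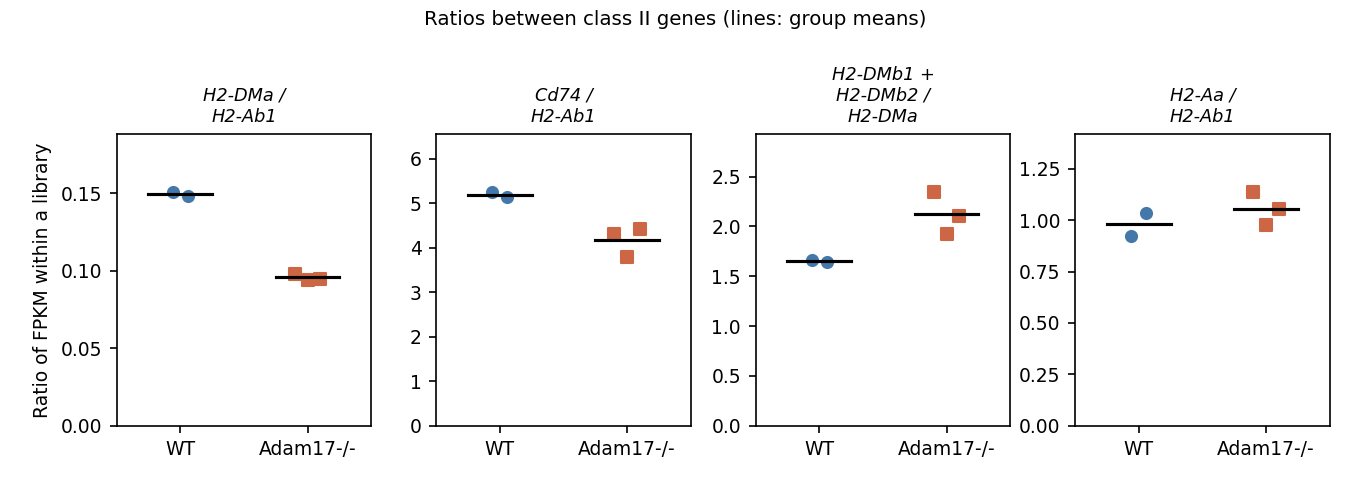
Ratios of FPKM within each library for 4 pairs of class II genes, with 1 point per library and a line at each group mean, on axes that start at 0. H2-DMa to H2-Ab1 is apart between groups (0.148 to 0.151 with WT, 0.0940 to 0.0982 with Adam17-/- cells), while H2-Aa to H2-Ab1 overlaps.

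The other genes of the pathway were taken from lists by role. Of 30 genes in 5 lists, 29 were tested, of which 2 rose, 10 fell, and 17 did not pass. Among all genes tested, 14.9% rose and 16.8% fell. The list counts depended on the scaling (5 lower and 10 higher with library size alone). Most of the calls were among the endosomal enzymes, of which 6 of 9 fell. Lgmn (asparagine endopeptidase, log2 fold change −0.59, adjusted p = 0.0068), Ctsb (−0.56, adjusted p = 0.00999), Ctsd (−0.56, adjusted p = 0.0114), Ctsl (−0.51, adjusted p = 0.0080), Ctsz (−0.45, adjusted p = 0.0188), and Ifi30 (the lysosomal thiol reductase GILT, −0.41, adjusted p = 0.0130) fell. Ctsh rose (0.34, adjusted p = 0.0126). Ctss, the protease that makes the last cuts in the invariant chain in macrophages and dendritic cells, had 2895 and 3384 CPM against 3749, 3706, and 3673 CPM and did not pass (0.24, adjusted p = 0.0872), nor did Sppl2a, which clears the invariant chain remnant from the membrane. The median log2 fold change of these 9 genes was −0.45, beside 0.01 over all genes and beside −0.59 over the 8 macrophage markers. These enzymes are abundant in macrophages, and the part of the lower macrophage markers in their change was not tested.

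Of the 7 transcription factors that sit on class II promoters, 6 did not pass and Nfyc, a subunit of NF-Y, fell (−0.29, adjusted p = 0.0363). Rfx5, the DNA-binding subunit of RFX, was close to level, with 37.9 and 38.6 CPM against 37.5, 41.2, and 43.6 CPM (0.09, SE 0.10, adjusted p = 0.487). Nfya (−0.25, adjusted p = 0.0743), Nfyb (0.41, adjusted p = 0.0593), and Creb1 (0.31, adjusted p = 0.0671) did not pass. Of 8 genes of the IFN-γ pathway to Ciita, Jak2 rose (0.41, adjusted p = 0.0166), and the receptor chain Ifngr1 (−0.32, adjusted p = 0.0135) and the kinase Jak1 (−0.27, adjusted p = 0.0295) fell. The transcription factor Irf1 (0.17, adjusted p = 0.130) and the feedback inhibitor Socs1 (−0.15, adjusted p = 0.475) did not pass. The ubiquitin ligase Marchf8 fell (−0.43, adjusted p = 0.0047). Its relative Marchf1, which removes class II from the surface of resting myeloid cells (0.33, adjusted p = 0.220), and Cd83, which counteracts it (0.39, adjusted p = 0.0952), did not pass.

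**Figure D5:**
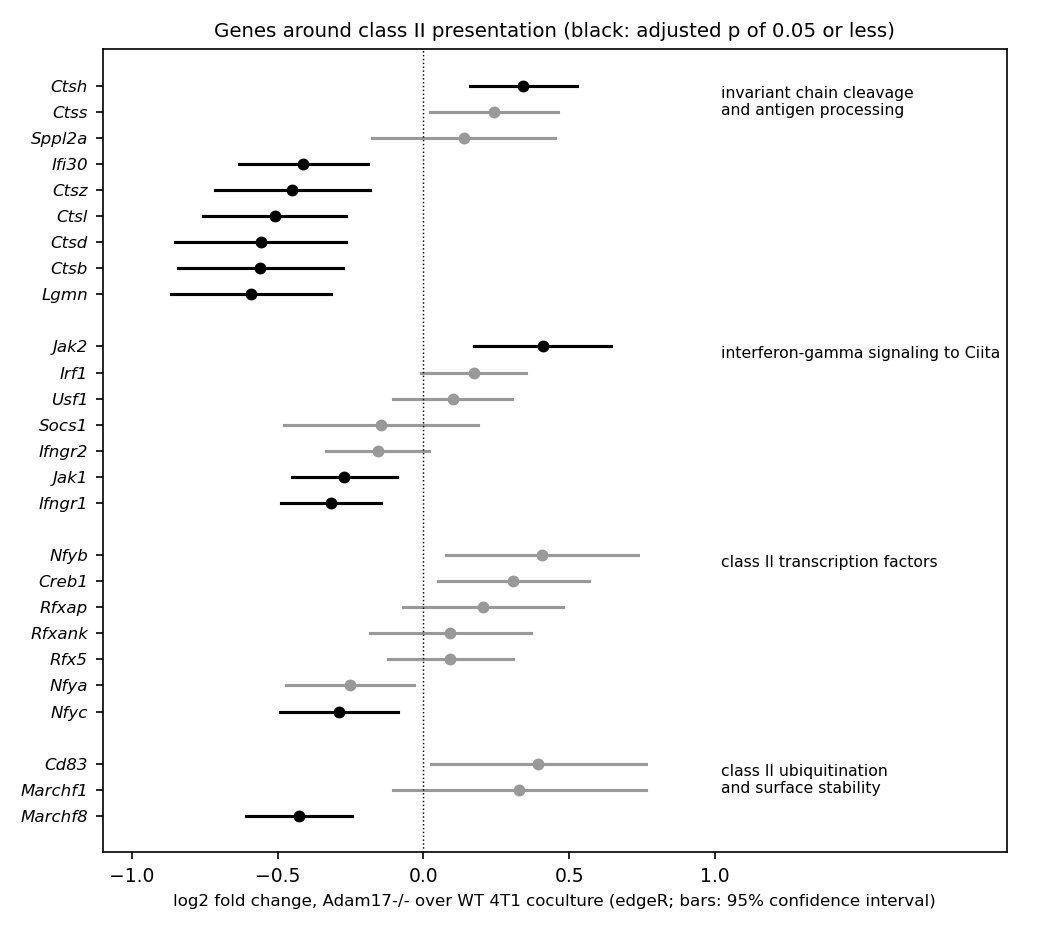
Log2 fold change (Adam17-/- over WT 4T1 coculture, edgeR) of genes around class II presentation in 4 lists, with bars for the 95% confidence interval, black where the adjusted p is 0.05 or less. The proteases Lgmn, Ctsb, Ctsd, Ctsl, and Ctsz and the reductase Ifi30 lie between −0.59 and −0.41, while Ctsh lies at 0.34.

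The 4 most abundant members, Cd74, H2-Aa, H2-Ab1, and H2-Eb1, were averaged to search for genes of like pattern over the 5 libraries. Their mean centred log2 CPM was at 0.00 and −0.18 in the WT libraries and at 0.10, −0.13, and 0.21 in the Adam17-/- libraries. In this mean the second library of each group lay lowest in its group, and the spread within groups was no smaller than the difference between them. The genes outside the lists closest to this pattern, by root mean square difference of centred log2 CPM, were Grb10 (0.0212), Tcta (0.0226), Mical3 (0.0271), C630043F03Rik (0.0273), and Rin3 (0.0342), and none of the 5 was called (adjusted p from 0.246 to 0.686). Grb10 (mean 0.80 CPM with WT and 0.91 CPM with Adam17-/- cells) and C630043F03Rik (1.89 and 2.18 CPM) had low levels, where counting error weighs more. Each of the 4 averaged members is part of the mean, yet they lay at unequal distances from it. H2-Eb1 ranked 6, H2-Ab1 31, H2-Aa 227, and Cd74 1008, and 254 genes lay within 0.1. Outside the 4, H2-DMb2 ranked 317 and H2-Ea 361, both closer than Cd74. With 5 libraries, many genes come this close. Ciita ranked 7846 and H2-DMa 8205, far from the pattern of these 4 genes.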

How the data were processed

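Poly-A RNA of 5 BMDM samples was sequenced on a BGISEQ-500 with paired ends. Only RNA with an integrity number above 6 was used. Per the study's methods and the submitters' processing notes, reads were aligned to GRCm38 (mm10) with HISAT, and transcripts were quantified with Bowtie2 and RSEM. Tool versions were not given in the sources used here. The authors deposited, per RefSeq transcript and library, an expected count, which is an estimate of reads that is not normalized, and an FPKM, which is scaled to transcript length and library size. Transcripts under 0.01 FPKM were not listed and were taken as 0. Strand use in counting was not given.

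For each gene, the expected counts of its transcripts were added up, then rounded. The quasi-likelihood test of edgeR 4.0.16 (R 4.3.3) was run on all 5 libraries without covariates, after filterByExpr and TMM scaling, and its script was tested on simulated data. TMM factors were 0.920 and 0.963 for the WT libraries and 1.049, 1.038, and 1.038 for the Adam17-/- libraries. CPM values are TMM-scaled. A floor of 3 counts corresponds to 0.157 to 0.197 CPM, and covers counting error only. Transcripts were tested with edgeR's diffSpliceDGE, ratios and shares with exact permutation tests. No source states that the libraries came from separate animals, so p-values measure the spread between these samples. Gene names and coordinates came from RefSeq (GRCm38.p6), which matched 17015 of 17058 gene identifiers, and first exons from GENCODE. DESeq2 1.42.0 and limma 3.58.1 on log2(FPKM + 0.1) and log2(FPKM + 1) served as alternatives, with other scalings, filters, call rules, and left-out libraries. The members and all lists were chosen with earlier results of these data known. The text names the members, the listed pathway and marker genes, and the 5 genes outside the lists whose pattern lay nearest to that of Cd74, H2-Aa, H2-Ab1, and H2-Eb1. The values of 1 listed gene are not reported here.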

Additional observations from a re-analysis of the deposited data

How the results depend on the processing

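With 2 and 3 libraries, calls near the threshold moved easily. The numbers of members called higher and lower (2 and 1) were 4 and 0 with library size alone and with limma on either FPKM scale, and 0 and 0 with calls limited to log2 changes of at least 1 in size (4.22% of all genes called), or to an adjusted p up to 0.001 and changes of at least 0.25 (2.47%). They ranged from 1 to 3 and from 0 to 1 when 1 library was left out. Among all genes, 1869 higher and 2114 lower became 3019 and 1077 with library size alone, 2927 and 1016 with limma on log2(FPKM + 0.1), 2867 and 1011 on log2(FPKM + 1), 422 and 109 with the fold limit of 1, 132 and 179 with the stricter p, and 1089 to 2460 and 926 to 2940 with 1 library left out. Among the pathway lists, 2 higher became 4 with DESeq2, 6 with upper quartile factors, and 5 without the filter. The 2 higher and 10 lower became 10 and 5 with library size alone, 10 and 3 with limma on log2(FPKM + 0.1), 8 and 3 on log2(FPKM + 1), 0 and 0 with both stricter rules, and 1 to 7 and 2 to 11 with 1 library left out. The median change over all genes (log2) was 0.01, and 0.16 with library size alone.

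With the replicate number as a block, 1 member was called higher (Ciita) and H2-Aa was not (0.25, adjusted p = 0.244), all genes gave 1216 higher and 1126 lower, and the pathway lists 0 higher and 6 lower. Deviations of same-numbered libraries correlated at −0.12 and −0.05, and with 2 shared numbers nothing shows that the numbers mark pairs.

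The sign turned for Cd74 with library size alone (0.051), limma (0.047 on both scales), without WT replicate 1 (0.039), and without Adam17-/- replicate 2 (0.038). It turned for H2-DMb1 under the same settings (0.079, 0.069 and 0.068, 0.097, 0.077), and for H2-DMb2 under these (0.12, 0.10 and 0.10, 0.048, 0.10) and upper quartile factors (0.026). With 1 library left out, Cd74 ranged from −0.23 to 0.039, H2-DMb1 from −0.22 to 0.097, and H2-DMb2 from −0.11 to 0.10. None of these passed the test. H2-DMa was also no longer called with limma (−0.28 and −0.27). The share of the longer Cd74 transcript differed by −5.05 to 1.17 percentage points with 1 library left out, and that of the downstream Ciita first exon by −30.9 to −28.0. Where 1 WT library was left out, the remaining one was assumed to vary like the Adam17-/- libraries. The cause of these moves was not tested.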
